A study of Homo sapiens with 30 samples.

Results

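The 56 genes described here carry names of mitochondrial ribosomal proteins. They were taken by name: MRPL or MRPS followed by a number and, where present, a letter A to C. Of 57 matching names in the files, 56 reached an FPKM of at least 1 in at least 3 of the 30 samples. Further names of the family, such as MRPL3, MRPL9, MRPL12, MRPL22, MRPS6 and MRPS10, had no matching entry in the files. The 56 are therefore only a part of the mitochondrial ribosomal protein genes. FPKM, fragments per kilobase of transcript scaled to the mapped fragments of a library, is the unit of the deposited values. The same filter kept 8530 of 22537 distinct gene names in all. The excluded name, MRPS18B, was listed at 0 in all 30 samples, and the lowest member, MRPL1, was at 3.805 FPKM in its lowest sample. By name 35 members belong to the large subunit (MRPL) and 21 to the small subunit (MRPS).

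The mitochondrial ribosome, or mitoribosome, translates the few mRNAs made from mitochondrial DNA, all of which encode subunits of the oxidative phosphorylation complexes. Its RNAs come from the mitochondrial genome, while every protein of it is encoded in the nucleus, made in the cytosol and imported. Some of these proteins descend from bacterial ribosomal proteins, and others were added in the mitochondrial lineage. Names do not always follow position: MRPS30 and MRPS18A sit in the large subunit of the human structure. MRPS36 works in mammals as a component of the 2-oxoglutarate dehydrogenase complex rather than of the ribosome. It was kept by its name among the small-subunit members in all counts.

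The samples were wells of BEAS-2B, an established line of human bronchial epithelial cells, exposed for 30 min on a rocker and lysed 2 or 24 h later. The 5 conditions were an internal control, whose content the labels do not describe, the smoke of charcoal alone, herbal (non-tobacco) shisha heated on charcoal, tobacco shisha heated on charcoal, and tobacco shisha heated on an electronic device. Each condition and time had 3 wells, so there were 10 groups. The exposure concentration was the highest without lactate dehydrogenase release at 24 h. Nothing ties the wells to separate cultures, so p-values measure the spread between wells, which may be technical. All groups come from the same cell line.

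The sum of FPKM per sample was 199990 to 220260, and read totals are not given in the files used here, so the counting precision of single values is unknown. Correlations between wells of a group ran from 0.983 to 0.992. Of 12 epithelial markers, 7 passed the filter, KRT8, KRT18 and KRT19 among them, with summed levels of 832 to 1252 FPKM over the groups. EPCAM, KRT5 and CDH1 did not pass. Of 9 fibroblast markers 4 passed, with group sums of 146 to 361 FPKM, and DCN was at 0 in every sample. Of 9 immune markers CD14 and CD68 passed, with group sums of 18.1 to 29.3 FPKM, while CD163, CD3E, MS4A1 and NKG7 were among those at 0 throughout. Of 6 endothelial markers 1 passed, EGFL7, and of the ciliated-cell and red blood cell markers 0 passed. The part of these markers in the results was not tested. In a bulk sample fewer cells of a type and less RNA per cell cannot be told apart.

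Start regions of 6 members are shown first. RefSeq promoter sequences (GRCh38.p14, 250 bases before to 50 bases after each start) matched 48 of the 56 members. Below are the 120 bases before the start of 6 of them, 5′ to 3′ on the gene's strand. ETS, NRF1, YY1 and E-box motifs are in capitals (the GC box, also counted, is not marked). All 6 hold a marked motif in this stretch. MRPS30, MRPS35, MRPL11, MRPL24, MRPL4 and MRPS9, also among the larger changes, hold none there, so the 6 do not stand for such genes. MRPL47 and MRPL32 rose most after heater smoke at 24 h, MRPL27 and MRPL36 rose after all 3 shisha smokes, MRPL52 had the largest rise after tobacco on charcoal among called members whose wells did not overlap with control, and MRPL54 fell after heater smoke.
MRPL47, chr3:179604639-179604758, minus strand, ETS motif: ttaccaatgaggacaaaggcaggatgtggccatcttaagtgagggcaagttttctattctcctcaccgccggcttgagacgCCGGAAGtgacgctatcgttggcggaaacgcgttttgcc
MRPL32, chr7:42932256-42932375, plus strand, NRF1 motif: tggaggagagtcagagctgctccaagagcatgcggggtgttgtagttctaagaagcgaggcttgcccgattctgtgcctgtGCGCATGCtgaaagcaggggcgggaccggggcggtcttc
MRPL27, chr17:50373185-50373304, minus strand, a pair of ETS motifs: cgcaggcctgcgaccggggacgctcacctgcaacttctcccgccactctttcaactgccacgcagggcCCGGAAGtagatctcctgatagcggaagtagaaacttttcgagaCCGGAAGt
MRPL36, chr5:1799838-1799957, minus strand, E-box then YY1 motif: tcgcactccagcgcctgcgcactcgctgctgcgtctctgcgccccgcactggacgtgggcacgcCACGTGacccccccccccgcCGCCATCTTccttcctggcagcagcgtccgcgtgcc
MRPL52, chr14:22829767-22829886, plus strand, a pair of YY1 motifs: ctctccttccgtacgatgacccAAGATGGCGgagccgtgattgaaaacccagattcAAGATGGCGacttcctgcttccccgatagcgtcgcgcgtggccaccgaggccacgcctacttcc
MRPL54, chr19:3762562-3762681, plus strand, ETS motif: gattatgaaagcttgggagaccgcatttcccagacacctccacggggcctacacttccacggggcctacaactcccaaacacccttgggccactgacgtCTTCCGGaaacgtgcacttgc

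The motifs were searched over the whole 300-base window on both strands, as exact letters. The ETS motif CCGGAAG, bound by GABPA among others, was in 21 of 48 members (43.8%), in 19.7% of the tested genes with a promoter entry and in 10.7% of all 27305 promoters. The YY1 motif AAGATGGCG was in 9 members (18.8%), against 4.32% of tested genes and 1.85% of all promoters. The NRF1 motif GCATGCGC was in 3 members (6.25%), MRPL32, MRPL17 and MRPL52, against 5.71% and 3.27%. The E-box CACGTG was in 4 members (8.33%; 9.85% and 7.43%) and the GC box GGGCGG in 31 (64.6%; 71.9% and 44.6%). None of these motifs contains another. Of the 26 members with a promoter entry that rose after all 3 shisha smokes at 24 h, 8 held the YY1 motif and 9 the ETS motif, and of the other 22 members 1 held the YY1 motif and 12 the ETS motif. These matches describe letters in a window and no more.

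Member levels were compared per length, on the FPKM scale, as means over the 30 wells. The median member was at 33.4 FPKM, and the median tested gene at 7.08. The highest were MRPL51 at 170.0 FPKM, MRPL41 at 120 and MRPL37 at 102, all large-subunit proteins of the mitochondrial lineage, then MRPL27 at 92.2, the homologue of the bacterial protein next to the peptidyl transferase centre, and MRPS15 at 80.03. The lowest were MRPL1 at 6.07, a protein of the mobile L1 stalk, MRPL30 at 8.39, MRPS36 at 9.41, then MRPL19, and MRPL35 at 11.2. Genes of the large subunit had a median of 34.7 FPKM and those of the small subunit 30.9. The 32 members with bacterial homologues had a median of 34.1 FPKM and the 23 of mitochondrial origin 34.7. Of the summed FPKM of a well, the members made up 1.02 to 1.27%.

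At 24 h most of the 56 members were called higher after each of the 3 smokes that contained shisha, and few were after charcoal alone. The median member was 0.20 higher on the log2 scale after herbal shisha on charcoal, 0.27 after tobacco on charcoal and 0.23 after tobacco on the heater, where the median over all tested genes was 0.03, 0.04 and 0.03. These changes are of FPKM + 1 and are small for single genes: 0 members were called with a change of 2-fold or more in any comparison. The calls were made with limma at an adjusted p below 0.05 over all 8530 genes. After herbal shisha 33 of 56 members rose (58.9%, against 16.5% of all genes) and 0 fell (10.4%). After tobacco on charcoal 42 rose (75% against 25.9%) and 0 fell (18.6%). After heater smoke 34 rose (60.7% against 34.3%) and 8 fell (14.3% against 29.5%). After charcoal alone 2 rose (6.05% of all genes) and 3 fell (3.82%), with a median change of 0.02 over all genes.

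The wells themselves were separated at this time. The median log2 difference of the members from the mean of the control wells was -0.02, -0.01 and 0.04 in the 3 control wells. It was 0.12 to 0.27 in the herbal wells, 0.22 to 0.35 in the wells of tobacco on charcoal and 0.22 to 0.31 in the heater wells, while the charcoal wells lay between -0.04 and 0.03. No shisha well overlapped the control or charcoal wells. The median over all tested genes separated shisha wells (0.0186 to 0.0579) from control wells (-0.0063 to 0.0155) too, by less. It did not separate them from charcoal wells (0.0168 to 0.0290). The count of herbal calls rested in part on single wells: 18 members were called without herbal well 3, the highest of its group, and 19 without control well 2. With median-of-ratios scaling, which sets the median gene of each well to the same level, 26 members rose (11.7% of all genes) and 0 fell (12.7%) after herbal shisha. After tobacco on charcoal 37 rose (21.3%) and 0 fell (21.9%), and after heater smoke 33 rose (31.6%) and 9 fell (31.9%).

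**Figure D1:**
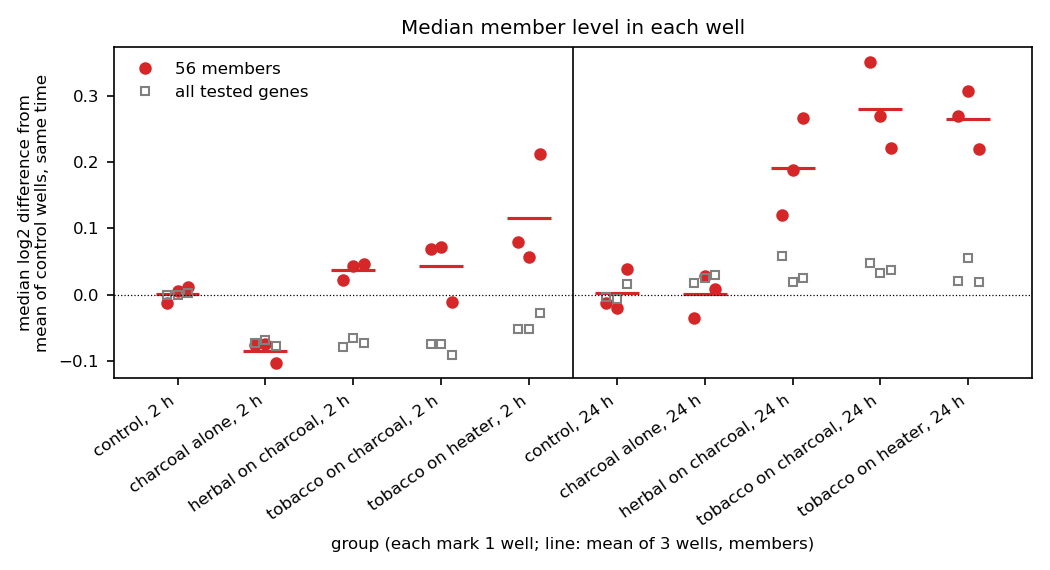
Median log2 difference (FPKM + 1) of the 56 members from the mean of the control wells of the same time, by group, with 1 dot for each well, a line for the mean of 3 wells, and open squares for the median over all tested genes. The shisha wells at 24 h sit between 0.12 and 0.35, above all control and charcoal wells of that time.

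Both subunits took part. After herbal shisha 20 of 35 large-subunit and 13 of 21 small-subunit genes rose. After tobacco on charcoal 26 and 16 rose. After heater smoke 20 large-subunit genes rose and 5 fell, and 14 small-subunit genes rose and 3 fell. Of the 32 members with bacterial homologues 18, 25 and 20 rose after the 3 shisha smokes, and of the 23 of mitochondrial origin 15, 17 and 13.

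After all 3 shisha smokes 28 of the 56 members rose (50%), against 11.6% of the tested genes, and 0 fell after all 3, against 7.89%. The 3 comparisons share the control wells of 24 h, so their calls are not independent. The 28 comprise MRPL4, MRPL13, MRPL19, MRPL20, MRPL21, MRPL27, MRPL32, MRPL36, MRPL38, MRPL42, MRPL43, MRPL44, MRPL45, MRPL47, MRPL49 and MRPL50 of the large-subunit names, and MRPS2, MRPS5, MRPS7, MRPS9, MRPS12, MRPS15, MRPS18A, MRPS22, MRPS24, MRPS30, MRPS31 and MRPS35. A further 8 rose after exactly 2 of them: MRPL1, MRPL2, MRPL15 and MRPS23 after both tobacco smokes, and MRPL24, MRPL37, MRPL40 and MRPL52 after both charcoal-heated shishas. MRPL16, MRPL17, MRPL28, MRPS11, MRPS14 and MRPS26 rose after tobacco on charcoal alone among the 3, MRPL30 and MRPS36 after heater smoke alone, and MRPS16 after herbal shisha, with a fall after heater smoke. Those differences between smokes were not tested gene by gene except where a direct comparison is given further on. The remaining 11 rose after none of the 3.

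MRPL47 and MRPL32 had the largest rises after heater smoke, but large-subunit names did not rise more often than small-subunit names. After the 3 shisha smokes 57.1, 74.3 and 57.1% of large-subunit names rose, and 61.9, 76.2 and 66.7% of small-subunit names. MRPL47, on chromosome 3 at 179588285 to 179604654 (GRCh38, minus strand), encodes a homologue of the bacterial protein L29 near the exit tunnel. It stood at 50.9, 48.9 and 55.6 FPKM in the control wells of 24 h. It was at 65.3, 65.1 and 72.3 FPKM after herbal shisha, at 78.0, 67.6 and 70.0 after tobacco on charcoal, and at 85.2, 82.4 and 85.0 after heater smoke. All 9 shisha wells lay above the control wells, which the naming rule asked for. They also lay above the charcoal wells, which were at 52.3, 53.3 and 55.5. The log2 changes were 0.38 ± 0.05 (SE; limma adjusted p = 2.36e-05), 0.46 ± 0.05 (adjusted p = 3.6e-07) and 0.69 ± 0.05 (adjusted p = 1.55e-10).

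MRPL32, on chromosome 7 at 42932200 to 42948958 (plus strand), encodes a protein that the m-AAA protease has to cleave before it enters the ribosome. The control wells of 24 h were at 27.0, 23.8 and 24.4 FPKM and the heater wells at 47.8, 44.9 and 45.7. The heater wells lay apart from the control wells, which the naming rule asked for. The change of 0.86 ± 0.07 (limma adjusted p = 2.43e-10) was the largest of any member in an exposure comparison. MRPL32 was also higher after charcoal alone, at 28.2, 30.4 and 33.6 FPKM, by 0.28 ± 0.07 (limma adjusted p = 0.00823).

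MRPS30, on chromosome 5 at 44808925 to 44820428 (plus strand), and MRPS35, on chromosome 12 at 27710773 to 27756295 (plus strand), followed in the order of heater changes. MRPS30 was at 18.6, 20.3 and 21.6 FPKM in the control wells and at 35.3, 29.3 and 34.6 in the heater wells, a change of 0.69 ± 0.07 (limma adjusted p = 3.27e-08). MRPS35, a small-subunit protein of mitochondrial origin, was at 30.4, 31.5 and 32.5 FPKM in the control wells and at 45.9, 48.9 and 48.1 in the heater wells, a change of 0.58 ± 0.05 (limma adjusted p = 2.01e-09). Both genes were named under a rule that asked for control and exposed wells without overlap. MRPS18A, the other large-subunit protein with an MRPS name, averaged 22.8 ± 0.39 FPKM (SD, n = 3) in control wells and 32.9 ± 1.18 in heater wells. MRPS12, a protein of the decoding centre, averaged 36.9 ± 0.85 FPKM in control wells against 44.1 ± 5.94 after herbal shisha, 48.4 ± 2.55 after tobacco on charcoal and 52.3 ± 1.25 after heater smoke. Both rose after all 3 shisha smokes.

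MRPL47 was also among the leading rises after the charcoal-heated shishas. After tobacco on charcoal the largest called change was that of MRPL1, at 10.8, 8.13 and 5.41 FPKM against 4.20, 5.74 and 6.202 in control wells (0.48 ± 0.14, limma adjusted p = 0.00879), and its groups overlapped. Among called members whose groups did not overlap, MRPL52, a protein of mitochondrial origin, led, from 20.4 ± 0.567 FPKM in control wells to 28.8 ± 1.66 (SD, n = 3; 0.48 ± 0.10, limma adjusted p = 0.000404). MRPL2, which builds part of the peptidyl transferase centre, rose by 0.46 ± 0.08 (limma adjusted p = 0.000112) and MRPL4, which lines the exit tunnel, by 0.43 ± 0.09 (adjusted p = 0.000293). After herbal shisha MRPL42 rose by 0.35 ± 0.10 (limma adjusted p = 0.0127), MRPS9 by 0.32 ± 0.06 (adjusted p = 0.0003) and MRPL19 by 0.31 ± 0.04 (adjusted p = 1.54e-05). For each of the 6 changes from MRPL52 on the 3 exposed wells lay above the 3 control wells, which the naming rule asked for. MRPL19 is a low gene, at 9.66, 9.43 and 10.3 FPKM in control wells and 12.5, 11.97 and 12.7 after herbal shisha.

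**Figure D2:**
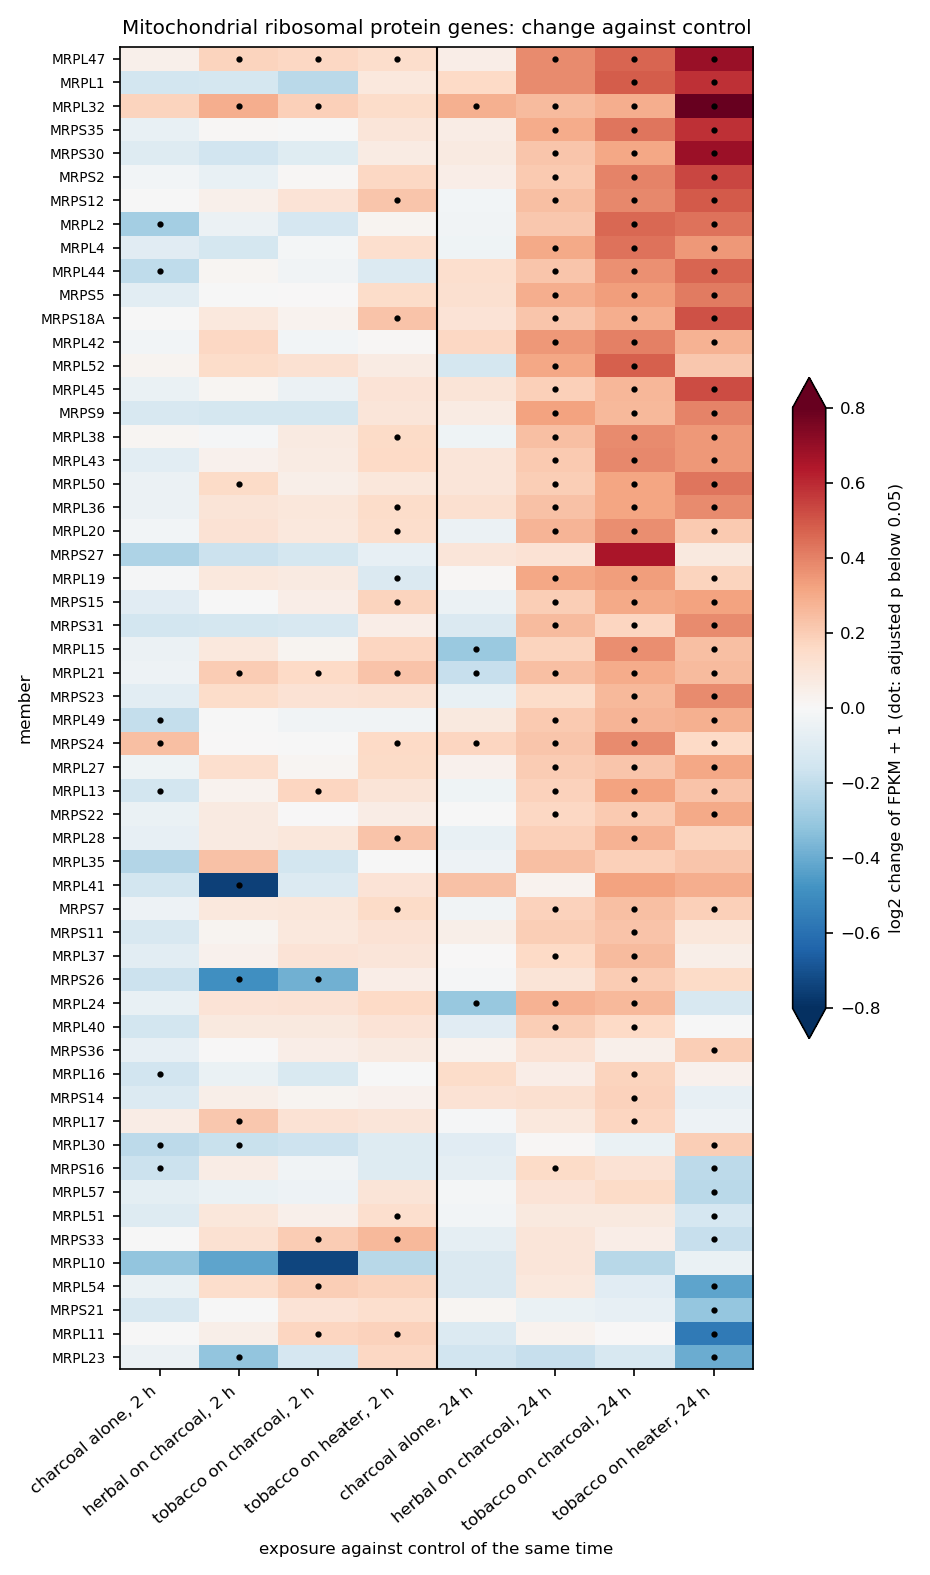
Log2 change of FPKM + 1 for each of the 56 members (vertical axis, ordered by the mean change after the 3 shisha smokes at 24 h) in the 8 exposure comparisons (horizontal axis), red higher and blue lower than control, with a black dot where the adjusted p was below 0.05. Dots fill most of the herbal and tobacco columns at 24 h (33, 42 and 42 of 56) and few of the charcoal column (5).

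Fewer members than genes at large fell after heater smoke at 24 h, 14.3% against 29.5%. These 8 were MRPL11, MRPL54, MRPL23, MRPS21, MRPL57, MRPS33, MRPL51 and MRPS16. None of the 8 was called lower after either charcoal-heated shisha at that time, where 0 of all 56 members were (10.4 and 18.6% of all genes). MRPL11, on chromosome 11 at 66435075 to 66466738 (minus strand), encodes the protein at the base of the stalk that recruits translation factors. It was at 41.4, 42.8 and 40.1 FPKM in control wells and at 26.2, 30.5 and 26.6 in heater wells, a change of -0.56 ± 0.06 (limma adjusted p = 1.53e-08). Wells of herbal shisha (40.4, 43.1 and 43.3 FPKM) and tobacco on charcoal (39.4, 43.2 and 41.8) lay among the control wells or next to them.

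MRPL54, on chromosome 19 at 3762664 to 3768575 (plus strand), was at 61.2, 63.2 and 60.6 FPKM in control wells and 44.7, 49.8 and 43.3 in heater wells (-0.42 ± 0.08, limma adjusted p = 4.6e-05). MRPL23, near the exit tunnel, averaged 33.6 ± 0.605 FPKM in control and 25.2 ± 1.89 in heater wells (SD, n = 3; -0.40 ± 0.10, limma adjusted p = 0.00107). MRPS21 averaged 31.1 ± 1.32 and 25.002 ± 1.29 FPKM (-0.31 ± 0.05, limma adjusted p = 2.59e-05). In these 3 genes the heater wells lay below the control wells, which the naming rule asked for. MRPL51, the most abundant member, fell from 171 ± 1.16 to 155 ± 4.58 FPKM, a change of -0.14 (limma adjusted p = 0.00479).

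**Figure D3:**
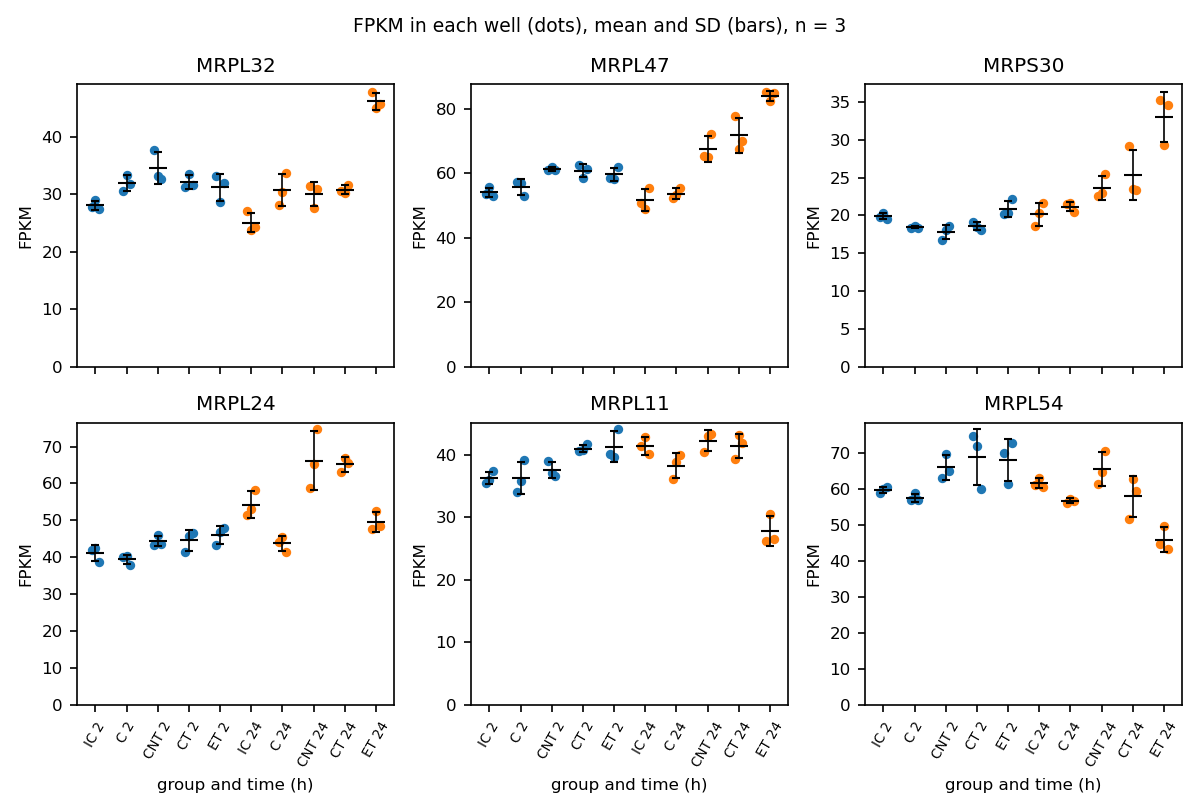
FPKM of 6 members (vertical axes, from 0) in each well of the 10 groups (horizontal axis: IC control, C charcoal, CNT herbal shisha on charcoal, CT tobacco on charcoal, ET tobacco on heater, with the time in h; blue 2 h, orange 24 h), with means and SD. MRPL32, MRPL47 and MRPS30 are highest in the heater wells at 24 h, MRPL11 and MRPL54 are lowest there, and MRPL24 is lower in charcoal than in control wells at 24 h.

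Charcoal smoke alone and charcoal smoke with herbal shisha were compared directly, since both hold burnt charcoal. At 24 h 26 members were higher with herbal shisha (16.2% of all genes) and 0 lower (15.3%). MRPL24, on chromosome 1 at 156737303 to 156741590 (minus strand), encodes a protein near the exit tunnel. It was at 51.5, 53.1 and 58.3 FPKM in control, 44.2, 45.6 and 41.5 in charcoal and 58.7, 65.2 and 74.6 in herbal wells. It fell after charcoal alone by 0.30 on the log2 scale (SE 0.07, limma adjusted p = 0.00575) and was 0.58 ± 0.07 higher in herbal than in charcoal wells (adjusted p = 2.11e-06). MRPL15 had the same order, at 12.6 ± 0.464, 10.1 ± 0.331 and 14.5 ± 1.64 FPKM (SD, n = 3) in control, charcoal and herbal wells, and differed by 0.47 ± 0.07 between herbal and charcoal wells (limma adjusted p = 4.91e-05). MRPL21 was the third member that fell after charcoal alone (-0.18 ± 0.05, limma adjusted p = 0.0173), and MRPS24 joined MRPL32 among the rises (0.17 ± 0.06, adjusted p = 0.0486), a call not kept with median-of-ratios scaling (adjusted p = 0.0904) or with the replicate block (adjusted p = 0.0599). Without herbal well 3 the herbal-against-charcoal count was 17. The 5 calls of charcoal against control fell to 3 without control well 1 or charcoal wells 2 or 3 and to 2 without control well 3. Among these calls MRPL24 alone held without each single well: MRPL32 was not called without charcoal well 3 (limma adjusted p = 0.0702), MRPL15 without control well 3 or charcoal well 2 (0.0584 and 0.0586), MRPL21 without control wells 1 or 3 or charcoal well 1 (0.0657, 0.0889 and 0.106), and MRPS24 without any control well or charcoal wells 2 or 3 (0.0965 to 0.159).

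Herbal and tobacco shisha on charcoal differed in 0 members at 24 h by limma, where 2.42% of all genes were higher and 2.71% lower with tobacco. At an unadjusted p below 0.05 there were 12. The difference was positive, higher with tobacco, in 43 of 56 members. Leaving out herbal well 3 gave 3 calls, and leaving out tobacco well 3 gave 5. At 2 h the count was also 0 (0.305% of all genes in each direction) with 5 members at an unadjusted p below 0.05, and 1 was called without tobacco well 1 or without tobacco well 3. A missed threshold does not show that the smokes act alike.

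Charcoal and electronic heating of tobacco shisha differed at 24 h in 27 members, of which 18 were higher with charcoal (24.9% of all genes) and 9 higher with the heater (22.9%). On the charcoal side MRPL11 led (0.56 ± 0.06, limma adjusted p = 1.21e-07), with MRPL24 (0.39 ± 0.07, adjusted p = 7.13e-05) and MRPL57 (0.37 ± 0.08, adjusted p = 0.000656). On the heater side MRPL32 led (-0.57 ± 0.07, limma adjusted p = 6.39e-07), with MRPS30 (-0.37 ± 0.07, adjusted p = 0.000253) and MRPL45, which anchors the ribosome to the inner membrane (-0.25 ± 0.05, adjusted p = 0.000322). These 6 genes were named under a rule that asked for wells without overlap, so their separation is not a result. MRPL32 was at 30.6, 30.2 and 31.6 FPKM with charcoal and at 47.8, 44.9 and 45.7 with the heater.

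At 2 h the members differed less from control, and the counts depended on the scaling. After charcoal alone 1 member rose (8.16% of all genes) and 7 fell (16.2%), and with median-of-ratios scaling 2 rose (11.2%) and 1 fell (8.07%). After herbal shisha 5 rose (10.6%) and 4 fell (27.7%), and 23 (19.1%) and 2 (19%) when scaled. After tobacco on charcoal 7 rose (8.5%) and 1 fell (26.7%), and 24 (17.2%) and 1 (17.7%) when scaled. After heater smoke 14 rose (9.27%) and 1 fell (24.8%), and 31 (16.8%) and 0 (19.7%) when scaled. The median change of all genes on the deposited scale was -0.08, -0.07, -0.08 and -0.04 in these comparisons, and that of the members -0.07, 0.03, 0.03 and 0.11.

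Single wells moved these small counts. The charcoal count of 8 was 4 without control well 2 or charcoal well 2, and 5 without control well 3 or charcoal wells 1 or 3. The count of 8 for tobacco on charcoal was 4 without control well 1 and 5 without control wells 2 or 3. The heater count of 15 was 4 without heater well 3, and 6, 7 and 8 without control wells 1, 2 and 3. Heater well 3 had a median member difference of 0.21, and the others of that group were at 0.06 and 0.08.

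The largest called differences at 2 h were falls after herbal shisha. MRPL41, on chromosome 9 at 137551199 to 137552555 (plus strand), was at 126, 129.5 and 131 FPKM in control wells and at 74.8, 81.0 and 73.6 after herbal shisha (-0.75 ± 0.15, limma adjusted p = 0.000402). The small-subunit gene MRPS26, on chromosome 20 at 3045945 to 3048254 (plus strand), was at 71.4, 70.0 and 69.7 FPKM in control wells and at 49.9, 53.7 and 46.3 after herbal shisha (-0.49 ± 0.08, limma adjusted p = 2.06e-05). It was also lower after tobacco on charcoal, at 55.6, 57.7 and 48.2 FPKM (-0.38 ± 0.08, limma adjusted p = 0.000361), and not after heater smoke, at 74.3, 64.2 and 81.3. Tobacco on charcoal was 0.43 ± 0.08 lower than heater smoke in MRPS26 at 2 h (-0.43, limma adjusted p = 0.000247).

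The rises at 2 h were smaller. MRPL32 rose by 0.29 ± 0.07 after herbal shisha (limma adjusted p = 0.00149) and by 0.19 ± 0.07 after tobacco on charcoal (adjusted p = 0.0303). MRPL21 rose by 0.21 ± 0.05 (limma adjusted p = 0.00178) after herbal shisha and by 0.23 ± 0.05 (adjusted p = 0.00072) after heater smoke, beside MRPS18A (0.23 ± 0.05, adjusted p = 0.000602), MRPL28 (0.23 ± 0.08, adjusted p = 0.0354) and MRPS33 (0.26 ± 0.07, adjusted p = 0.00641). MRPS24 was the member that rose after charcoal alone (0.24 ± 0.06, limma adjusted p = 0.00244), and MRPL2 fell most of those named there (-0.27 ± 0.08, adjusted p = 0.0176), a call not kept after scaling (adjusted p = 0.0985). Without single wells some of these calls were lost as well. MRPL32 after tobacco on charcoal was lost without control wells 1 or 3 or exposed wells 2 or 3 (limma adjusted p = 0.0505 to 0.112). MRPS33 was lost without heater well 3 (adjusted p = 0.0547), MRPL28 without any control well or heater well 3 (0.0735 to 0.186), and MRPL2 without control wells 1 or 2 or charcoal well 1 (0.0545 to 0.0667).

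In direct comparisons at 2 h, 13 members were higher with herbal shisha than with charcoal alone (10.1% of all genes) and 4 lower (14.3%). MRPL35 was 0.47 ± 0.10 higher (limma adjusted p = 0.00209) and MRPL41 0.60 lower (-0.60 ± 0.15, adjusted p = 0.0056). Between charcoal- and heater-heated tobacco 1 member was higher with charcoal (10.6%) and 7 lower (12.7%), and 1 (13%) and 3 (9.8%) when scaled. That count of 8 was 4 without tobacco-on-charcoal well 3 or heater well 3.

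The change of each effect between 2 and 24 h was tested as a difference of differences. The effect of charcoal alone was higher at 24 than at 2 h in 4 members (16.2% of all genes) and lower in 0 (7%), and in 2 (8.39%) and 3 (10.4%) when scaled. That of herbal shisha was higher in 14 (24%) and lower in 0 (8.3%), and in 4 (12%) and 2 (13.8%) when scaled. That of tobacco on charcoal was higher in 28 (30.2%) and lower in 1 (10.8%), and in 10 (16.4%) and 4 (17.7%) when scaled. That of heater smoke was higher in 21 (34.8%) and lower in 8 (22.8%), and in 14 (29%) and 12 (27.8%) when scaled. On the deposited scale the members' share of rises was above that of all genes for tobacco on charcoal, near it for herbal shisha and heater smoke and below it for charcoal alone. With scaling the share for tobacco on charcoal was near that of all genes too. The control wells themselves differed between the times in 7 members, 5 higher at 24 h (7.44%) and 2 lower (9.44%), with MRPL24 the largest (0.39 ± 0.07, limma adjusted p = 0.000324) and MRPS24 lowest (-0.30 ± 0.06, adjusted p = 0.000586). Leaving out 1 control well gave 3 calls (2 h wells 2 or 3) or 4 (2 h well 1, 24 h wells 1 or 3).

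Over the 8 exposure comparisons MRPL32, MRPL47 and MRPS24 rose in 6 and fell in 0, and MRPL21 rose in 6 and fell in 1. Calls in both directions were made for 16 members (28.6%, near the 24.1% of all genes), and 3 members (5.36%, against 12.2%), MRPL10, MRPL35 and MRPS27, were never called. Within each time these comparisons share the control wells. The values of MRPS27, a protein with pentatricopeptide repeats, fell at 2 separate levels at 24 h. It was at 42.7, 39.95 and 16.1 FPKM in control wells, 18.3, 43.2 and 43.0 in charcoal, 43.4, 45.5 and 17.9 in herbal, 50.7, 47.5 and 46.3 in tobacco-on-charcoal and 44.5, 17.6 and 41.8 in heater wells. One well of each group but that of tobacco on charcoal was low. MRPL10, which carries the stalk proteins, had low wells in a similar way, among them 12.7 FPKM beside 37.9 and 31.8 after tobacco on charcoal and 15.5 beside 37.5 and 37.8 after heater smoke at 24 h. These 2 genes were picked out after their values were seen.

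Most pairs of members were positively correlated from well to well. With group means removed, the median correlation between pairs of members over the 30 wells was 0.29, and 82.0% of pairs were above 0; the wells of a value share a library and its total. Over the 10 group means the median was 0.54. Neither median was computed for all tested genes, so they do not show a trait particular to the members. MRPL43 (r = 0.97) and MRPS15 (r = 0.96) were most like the median of the others over the 10 groups. Negative correlations with that median were found for MRPS21 (-0.45), MRPL23 (-0.43), MRPL54 (-0.35), MRPL11 (-0.19) and MRPS24 (-0.11).

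Several properties could affect single members. Named pseudogenes exist for 24 members, 58 in all, and short reads may be shared with them. At 24 h 14, 16 and 15 of these 24 rose after herbal shisha, tobacco on charcoal and heater smoke, and 19, 26 and 19 of the 32 without one. MRPL23 and MRPL45 each had a second entry under the same transcript accession, and the entry with the higher mean was used. The second entry of MRPL45 averaged 4.14 FPKM, was at 0 in 3 wells and reached 23.6. Over members the correlation of log2 transcript length with the change was -0.45 after heater smoke at 2 h (-0.25 over all genes with a length), and 0.05 to 0.19 in the 4 comparisons at 24 h. The part of length in the heater counts at 2 h was not tested.

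By the outer gene ends of GENCODE 29, 13 of the 56 members (23.2%) start within 1000 bases of a protein-coding gene running the other way. Of the tested genes with coordinates 9.58% do. The RefSeq starts used for the promoters can differ from these ends, so the count may depend on the source. MRPL47 and NDUFB5, a subunit of complex I, start 36 bases apart. After heater smoke MRPL47 rose by 0.69 and NDUFB5 fell (-0.29, limma adjusted p = 3.43e-05), while after tobacco on charcoal they rose by 0.46 and 0.14 (adjusted p = 0.0258 for NDUFB5). MRPL36 and NDUFS6, another complex I subunit, are 34 bases apart by GENCODE and changed by 0.38 and -0.22 after heater smoke (limma adjusted p = 0.0352 for NDUFS6). The MRPL36 promoter printed above, chr5:1799838-1799957, lies inside the GENCODE gene, 1798386 to 1801366. The distance of NDUFS6 from the RefSeq start of MRPL36 was not measured. The printed MRPL32 stretch, chr7:42932256-42932375, also lies inside its GENCODE gene, 42932200 to 42948958. Those of MRPL47, MRPL27, MRPL52 and MRPL54 reach into their genes in part. MRPL27 and EME1 also moved apart (0.31 and -0.32, limma adjusted p = 0.00329 for EME1). MRPL50 and ZNF189 (0.43 and 0.73) and MRPL21 and IGHMBP2 (0.25 and 0.42) both rose after heater smoke. Of the 6 partners that passed the filter, 2 rose (34.3% of all genes) and 3 fell (29.5%) after heater smoke. After herbal shisha 1 rose (16.5%) and 0 fell (10.4%), and after tobacco on charcoal 2 rose (25.9%) and 0 fell (18.6%). With 6 partners these counts cannot be told from the shares of all genes. Without strand information in the sources used here, reads of overlapping transcripts of such pairs cannot be told apart.

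Other genes of mitochondrial gene expression were counted from fixed lists at 24 h. Their counts are to be read against all tested genes, of which 16.5, 25.9 and 34.3% rose and 10.4, 18.6 and 29.5% fell after herbal shisha, tobacco on charcoal and heater smoke. Of 21 mitoribosome assembly genes 9 rose after herbal shisha, 14 after tobacco on charcoal and 15 after heater smoke, with 1 fall in the last, and after charcoal alone 1 rose. RNMTL1, a methyltransferase of the large mitochondrial ribosomal RNA, went from 13.1 ± 0.82 FPKM in control to 16.8 ± 0.7, 18.8 ± 1.3 and 24.3 ± 1.6 (SD, n = 3) in that order. DHX30, an RNA helicase of ribosome assembly, went from 22.6 ± 0.67 to 27.1 ± 1.2, 30.2 ± 2.5 and 31.4 ± 0.25 FPKM. Both rose after all 3. Of 12 mitochondrial translation factors 7 rose after each shisha smoke and 1 fell after heater smoke. GFM1, an elongation factor, was at 20.03 ± 0.76 FPKM in control wells and at 25.9 ± 0.53, 29.2 ± 2.8 and 32.9 ± 1.3 after the 3 smokes. Charcoal alone raised it as well, to 23.4 ± 1.5 FPKM (0.21, limma adjusted p = 0.0098).

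The tRNA synthetases of mitochondria were divided: of 13, 5, 8 and 6 rose after herbal shisha, tobacco on charcoal and heater smoke, and 1, 1 and 3 fell. HARS2 rose from 13.6 ± 0.39 to 22.9 ± 0.67 FPKM after heater smoke, whereas CARS2 fell from 49.3 ± 2.6 to 26.4 ± 2.6. Of 8 genes of mitochondrial DNA transcription and replication 2, 4 and 7 rose and 0 fell, with C10orf2, the Twinkle helicase, at 5.44 ± 0.24 FPKM in control and 12.4 ± 2 in heater wells. Of 7 regulators of mitochondrial biogenesis 0, 1 and 4 rose, ESRRA among them, at 9.32 ± 0.48 FPKM in control and 14.9 ± 0.38 in heater wells. YY1 was at 22.4 ± 1.2 FPKM in control wells and 21.5 ± 1.3 after each charcoal-heated shisha. It rose after heater smoke, to 28.4 ± 1.7 FPKM, and after charcoal alone, to 25.9 ± 0.97 (0.20, limma adjusted p = 0.0177). Of 10 mitochondrial chaperones and proteases 5, 6 and 6 rose and 1, 1 and 2 fell. HSPD1, the mitochondrial chaperonin, rose from 118 ± 15 to 307 ± 69 FPKM after heater smoke and the protease LONP1 fell from 44.4 ± 1.3 to 29.2 ± 2.2.

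Subunits of oxidative phosphorylation, which the mitoribosome's products join, divided after heater smoke. Of 59 nuclear-encoded subunits 15 rose and 1 fell after herbal shisha, 18 rose and 4 fell after tobacco on charcoal, and 9 rose and 28 fell after heater smoke, where the mitoribosomal genes had 34 rises and 8 falls. For cytosolic ribosomal proteins 31 names matched in the files and 30 were tested. Of these 30, 0 rose after herbal shisha, 3 after tobacco on charcoal and 10 after heater smoke, with 1 fall in the last. Against the same shares of all genes (16.5, 25.9 and 34.3%), these rises were fewer after the charcoal-heated shishas and about the same share after heater smoke. For tobacco on charcoal the direction flipped with scaling, to 1 rise and 3 falls. Of 4 mitoribosomal proteins with names of another pattern 1 rose after each of the 4 exposures and 2 fell after heater smoke. CHCHD1 was at 43.0 ± 0.68 FPKM in control and fell to 37.4 ± 1.5 in heater wells, PTCD3 fell from 6.27 ± 0.25 to 5.42 ± 0.17, and GADD45GIP1 rose from 89.6 ± 7.6 to 122 ± 17.

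**Figure D4:**
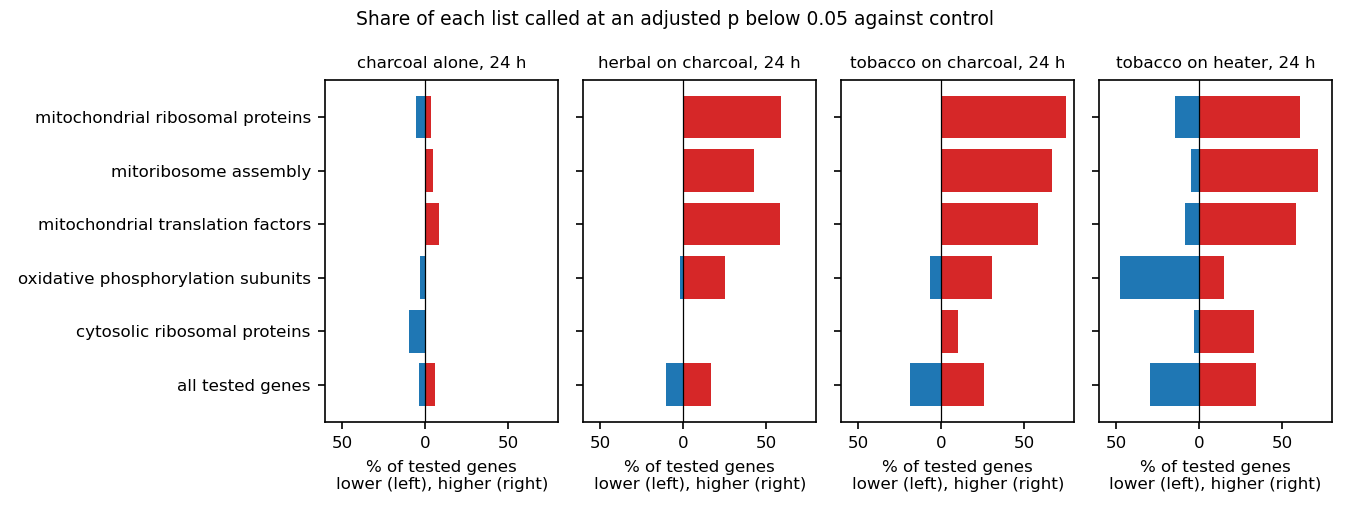
Percent of the tested genes of each list (vertical axis) called higher (red, right) or lower (blue, left) than control at 24 h, for the 4 exposures, with all tested genes as the last bar. The mitoribosomal bar reaches 58.9, 75 and 60.7% higher after the shisha smokes, and the oxidative phosphorylation bar points left after heater smoke.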

How the data were processed

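RNA-seq was available for 30 wells of BEAS-2B cells in 10 groups of 3. Per the submitters' processing notes, the authors used HISAT2 2.1.0 and StringTie 1.3.4d with hg38, and the deposited per-gene values are FPKM, with 29190 entries per sample. The annotation, strandedness and read totals are not given in the sources used here. Groups were taken from the sample titles.

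For each name the entry with the highest mean was used, and names with an FPKM of at least 1 in at least 3 wells were tested. Differences were fitted with limma 3.58.1 (R 4.3.3, trended variances, 20 residual degrees of freedom) on log2(FPKM + 1) over all 10 groups, and p-values were adjusted by Benjamini-Hochberg over all 8530 genes, with calls at 0.05. A fold change on this scale understates the change of low genes. The script was tested on simulated data. Coordinates, pseudogenes and transcript lengths come from GENCODE 29 (GRCh38), and promoter sequences from RefSeq. The alternatives were median-of-ratios scaling, equal FPKM sums (TPM), a pseudocount of 0.1, no filter, summed entries, only the groups compared, a replicate block, and leaving out each well.

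The members and lists were chosen with earlier results of these data known. Members named are the 4 largest called rises and falls of each exposure comparison and the 3 of each other comparison (all wells apart), the 5 highest and 5 lowest levels, those called most often, and some by role. Lists name up to 3 genes per time by smallest p.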

Additional observations from a re-analysis of the deposited data

Results flagged for a closer look

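For 16 effects of single members, the difference between 24 h and 2 h was itself past the threshold (limma interaction, adjusted p below 0.05). They are the largest such differences for each exposure, given as the log2 change against control at 24 h minus that at 2 h.

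For charcoal alone they were MRPL44 at 0.34 (adjusted p = 0.00449), MRPL16 at 0.30 (adjusted p = 0.00372) and MRPL49 at 0.27 (adjusted p = 0.00097). With median-of-ratios scaling MRPL16 was no longer called (adjusted p = 0.0543).

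For herbal shisha on charcoal they were MRPL41 at 0.77 (limma adjusted p = 0.00813), MRPS26 at 0.59 (adjusted p = 0.000229) and MRPS9 at 0.46 (adjusted p = 0.000159). MRPL41 and MRPS26 are the genes lowest against control at 2 h, and at 24 h MRPL41 varied from 85.6 to 139 FPKM among the herbal wells.

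For tobacco on charcoal they were MRPL1 at 0.70 (limma adjusted p = 0.00867), MRPL2 at 0.59 (adjusted p = 0.000373), MRPS26 at 0.58 (adjusted p = 0.000186) and, in the other direction, MRPL54 at -0.29 (adjusted p = 0.0372). The MRPL54 call was lost without any 1 of the 2 h control wells, 24 h control wells 1 or 2, 2 h tobacco wells 1 or 2 or 24 h tobacco well 1 (limma adjusted p = 0.0533 to 0.132). MRPL1 stood at 10.8, 8.13 and 5.41 FPKM in the exposed wells of 24 h, the widest spread of its groups.

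For tobacco on the heater they were MRPL32 at 0.71 (limma adjusted p = 1.51e-06), MRPS30 at 0.62 (adjusted p = 2.63e-05) and MRPL44 at 0.58 (adjusted p = 4.04e-06), and the falls MRPL11 at -0.74 (adjusted p = 1.17e-07), MRPL54 at -0.60 (adjusted p = 5.76e-05) and MRPL23 at -0.57 (adjusted p = 0.00127). MRPL44 encodes a protein with an RNase III fold and was at 15.5 ± 1.38 FPKM in heater wells at 2 h and 22.1 ± 1.62 at 24 h (SD, n = 3), against 16.8 ± 0.189 and 15.7 ± 0.124 in control wells.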

How the results depend on the processing

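No named change reversed in any alternative. Except for the changes of effects between times, members were named only where the wells did not overlap. For those, leaving out a well or changing the pseudocount could not reverse the direction. Of 84 named changes, 9 lost their call with median-of-ratios scaling, 3 with equal FPKM sums, 1 with a pseudocount of 0.1, 1 with the replicate block and 21 when some well was left out. Counts of called members moved beyond 1.5 times as follows, and the cause was not tested. With median-of-ratios scaling they were 3, 25, 25 and 31 for charcoal, herbal, tobacco on charcoal and heater at 2 h, 1 for tobacco against herbal and 4 for charcoal against heater tobacco at 2 h, and 6 and 14 for the change of the herbal and tobacco-on-charcoal effects between times. Fitting only the groups compared, which leaves fewer wells to estimate the spread, gave 22, 23, 13 and 5 at 2 h, 3 and 18 for charcoal and herbal shisha at 24 h, 28 for herbal against charcoal and 1 for charcoal against heater tobacco at 2 h, and 11 for the change of the charcoal effect. Equal FPKM sums gave 7 for the heater at 2 h. A pseudocount of 0.1 gave 1 for tobacco against herbal at 2 h.

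Leaving out 1 well gave 4 to 6, 6 to 9, 4 to 8 and 4 to 22 calls for the 4 exposures at 2 h and 2 to 5, 18 to 36, 37 to 42 and 40 to 41 at 24 h. The ranges were 12 to 15 and 17 to 29 for herbal against charcoal at 2 and 24 h, 0 to 1 and 0 to 5 for tobacco against herbal, 4 to 10 and 20 to 27 for charcoal against heater tobacco, and 3 to 7 for the control between times. For the change of each effect they were 3 to 5, 10 to 19, 24 to 31 and 25 to 32.

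The wells carry numbers 1 to 3 in every group, but same-numbered wells did not deviate together: 10 of 135 same-number correlations were above 0.1 and in 0 of 45 pairs of groups were all 3. With the replicate number as a block the count was 1 for tobacco against herbal at 2 h, and 33, 41 and 42 for the shisha smokes at 24 h. The read depth is unknown, so counting error cannot be given.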
